A study of Homo sapiens with 88 samples.

Results

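The annexins studied here are 8 genes, ANXA1, ANXA2, ANXA3, ANXA4, ANXA5, ANXA6, ANXA7 and ANXA11, chosen by name among 19775 genes with a probe set of their own. The choice was made with earlier results of these data known. Every probe set annotated to one of them alone was taken, which gave 17 probe sets of 41091 with a single gene symbol. The genes lie on chromosomes 9 (ANXA1), 15 (ANXA2), 4 (ANXA3 and ANXA5), 2 (ANXA4), 5 (ANXA6) and 10 (ANXA7 and ANXA11). The arrays are Affymetrix HG-U133 Plus 2.0 arrays of 9 small cell lung cancer (SCLC) lines, and each value is the deposited log2 expression level of 1 probe set on 1 array. Cells were grown in RPMI with 10% FBS and received 552A (45 arrays) or the vehicle DMSO (43 arrays). The protocol describes exposure to the vehicle or to GSK2879552 at 1 µM, a compound that blocks LSD1 (KDM1A), an enzyme that removes methyl groups from histone H3. Since no label equates that compound with 552A, the arm keeps its label here. Days 2, 4 and 7 were measured in NCI-H146, SHP-77, COLO668, NCI-H526, NCI-H446 and NCI-H510, which are called the time course lines below. The remaining lines, H1417, H69 and H2171, have day 4 alone. Of the 42 groups of line, treatment and day, 39 held 2 arrays, 2 held 3 and 1 held 4. The stated aim was to learn how LSD1 inhibition slows the growth of SCLC cells. Which lines its authors counted as sensitive or resistant is not stated in the labels, so the lines were not split in that way.

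Annexins are proteins that bind phospholipid membranes when calcium rises, through a conserved annexin core, while their differing amino termini recruit partner proteins, many of them of the S100 family. They act in vesicle traffic, in the link between membrane and actin, and in the resealing of torn plasma membrane. ANXA1 carries anti-inflammatory signals of glucocorticoids through formyl peptide receptors, ANXA2 forms a complex with S100A10 that binds plasminogen and its activator, and ANXA5 binds phosphatidylserine on dying cells.

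The windows around the starts of ANXA3, ANXA1, ANXA6 and ANXA2 are shown because these genes gave the largest or most frequent changes. Each runs from 250 bases before to 50 bases after the annotated gene start, 5′ to 3′ on the gene's strand, taken from RefSeq on build GRCh38.p14. Capitals mark matches, on either strand, to CACCTG (an E-box that SNAIL and ZEB factors bind), TGANTCA (the AP-1 element) or AAATCA (the core bound by GFI1 and GFI1B). The windows lie at chr4:78551520-78551819 (+ strand, ANXA3), chr9:73151615-73151914 (+ strand, ANXA1), chr5:151157730-151158029 (− strand, ANXA6) and chr15:60397937-60398236 (− strand, ANXA2).
ANXA3: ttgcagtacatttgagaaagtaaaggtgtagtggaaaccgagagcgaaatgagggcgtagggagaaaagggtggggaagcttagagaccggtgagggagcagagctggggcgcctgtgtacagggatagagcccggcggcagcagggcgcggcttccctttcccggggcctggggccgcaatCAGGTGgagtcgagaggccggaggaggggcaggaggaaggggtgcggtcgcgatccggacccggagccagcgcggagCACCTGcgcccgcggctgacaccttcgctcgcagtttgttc
ANXA1: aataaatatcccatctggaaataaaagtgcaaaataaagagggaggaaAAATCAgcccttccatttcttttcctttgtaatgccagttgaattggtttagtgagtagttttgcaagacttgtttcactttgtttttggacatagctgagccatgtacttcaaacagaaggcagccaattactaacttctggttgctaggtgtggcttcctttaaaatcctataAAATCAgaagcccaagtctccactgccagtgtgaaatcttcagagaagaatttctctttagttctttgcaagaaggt
ANXA6: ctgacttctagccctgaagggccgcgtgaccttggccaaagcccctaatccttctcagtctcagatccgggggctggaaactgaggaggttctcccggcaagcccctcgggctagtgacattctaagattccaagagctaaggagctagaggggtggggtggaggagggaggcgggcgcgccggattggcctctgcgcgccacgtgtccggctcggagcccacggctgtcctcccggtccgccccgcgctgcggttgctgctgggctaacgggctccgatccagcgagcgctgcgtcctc
ANXA2: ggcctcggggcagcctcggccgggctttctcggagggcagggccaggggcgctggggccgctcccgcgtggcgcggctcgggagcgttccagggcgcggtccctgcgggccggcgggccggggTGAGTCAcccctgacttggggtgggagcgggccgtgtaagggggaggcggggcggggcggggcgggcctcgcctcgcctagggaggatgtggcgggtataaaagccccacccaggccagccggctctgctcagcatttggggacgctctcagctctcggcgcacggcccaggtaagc
The ANXA1 window held 0 CpG dinucleotides, a state shared by 3.96% of 35116 RefSeq windows of the same length. It also held 2 matches to AAATCA, where 13.2% of windows hold at least 1 match. The ANXA3 window had 25 CpG and 2 matches to CACCTG, where 20.6% of windows hold at least 1 match. The ANXA2 window had 32 CpG and 1 match to TGANTCA, where 7.71% of windows hold at least 1 match. The printed ANXA6 window had 25 CpG and none of the 3 motifs. A second ANXA6 window, at chr5:151141635-151141934 and not printed, had 10 CpG and 1 match to CACCTG. The median window had 14 CpG. Over the 12 windows of all 8 genes, 5 held CACCTG, 1 held TGANTCA and 2 held AAATCA. These are matches of letters only, and no binding was measured here.

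Array medians lay between 7.36 and 7.46, and a probe set was tested if the mean of at least 1 group exceeded 7.41, the median of all values. That left 29598 probe sets of 15352 genes. All 8 annexin genes kept at least 1 probe set, and 14 of their 17 were tested. The other 3, 1 each of ANXA1, ANXA2 and ANXA6, stayed under that limit in every group. Each gene was read from its brightest tested probe set, and a level under 6.09, the median lower quartile of the arrays, is called dim. INSM1, a neuroendocrine transcription factor, had DMSO levels of 12.36 to 13.80 over the 9 lines, and POU2F3, which marks tuft-cell-like SCLC, had 12.48 in NCI-H526 and 4.54 to 4.79 in the other lines. Other markers varied more between lines. GRP was at 5.61 in NCI-H526, 6.41 in NCI-H446 and 6.21 in H2171, against 9.37 to 13.61 elsewhere. EPCAM, an epithelial marker, was at 6.70 in NCI-H446 and 13.20 to 14.20 elsewhere. Of 2 further epithelial markers, KRT8 was at 8.67 in NCI-H446 and 11.80 to 12.64 elsewhere. KRT18 was at 7.82 in NCI-H446 and 7.76 in H2171, against 11.54 to 13.71 elsewhere. Under 552A, EPCAM was called higher in NCI-H446 (0.56) and KRT18 in H69 (0.52). KRT8 (-0.28) and KRT18 (-0.30) were called lower in NCI-H526. Of 10 SCLC identity genes 8 were tested. Under 552A, 8 of their 72 pairs of gene and line were called higher (11.1%) and 19 lower (26.4%). Over all pairs of probe set and line these shares were 4.86% and 3.41%. KDM1A, which encodes LSD1, was not called in any line. On 6 arrays RNA quality or spread stood apart, all from SHP-77 day 7, COLO668 day 7 or NCI-H446 day 4. On 5 of them the 3′ minus 5′ difference of ACTB was 0.88 to 1.67, against at most 0.73 elsewhere, and the other had an interquartile range of 2.56, against at least 2.89 elsewhere. All 19 annexin calls described below held without these 6 arrays.

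Under DMSO, the lines differed most in ANXA1, ANXA2, ANXA4 and ANXA6. On the log2 scale ANXA1 spanned 6.63 between the highest and the lowest line, a 99.1-fold range. The span was 5.46 for ANXA2, 4.44 for ANXA4, 4.24 for ANXA6 and 3.42 for ANXA3, against a median of 1.44 and a 90th percentile of 3.64 over all probe sets tested. ANXA5, ANXA7 and ANXA11 spanned 1.57, 1.20 and 1.66. A line's level is the mean over its days, so H69, H2171 and H1417 enter with day 4 alone and the others with 3 days. Since the lines were ordered by the same values, tests between neighbours in the order describe that order. By limma with Benjamini-Hochberg adjustment over all probe sets, 32 of 64 neighbour pairs differed, against 30.3% over all probe sets. No value of one probe set is set against another's here.

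**Figure D1:**
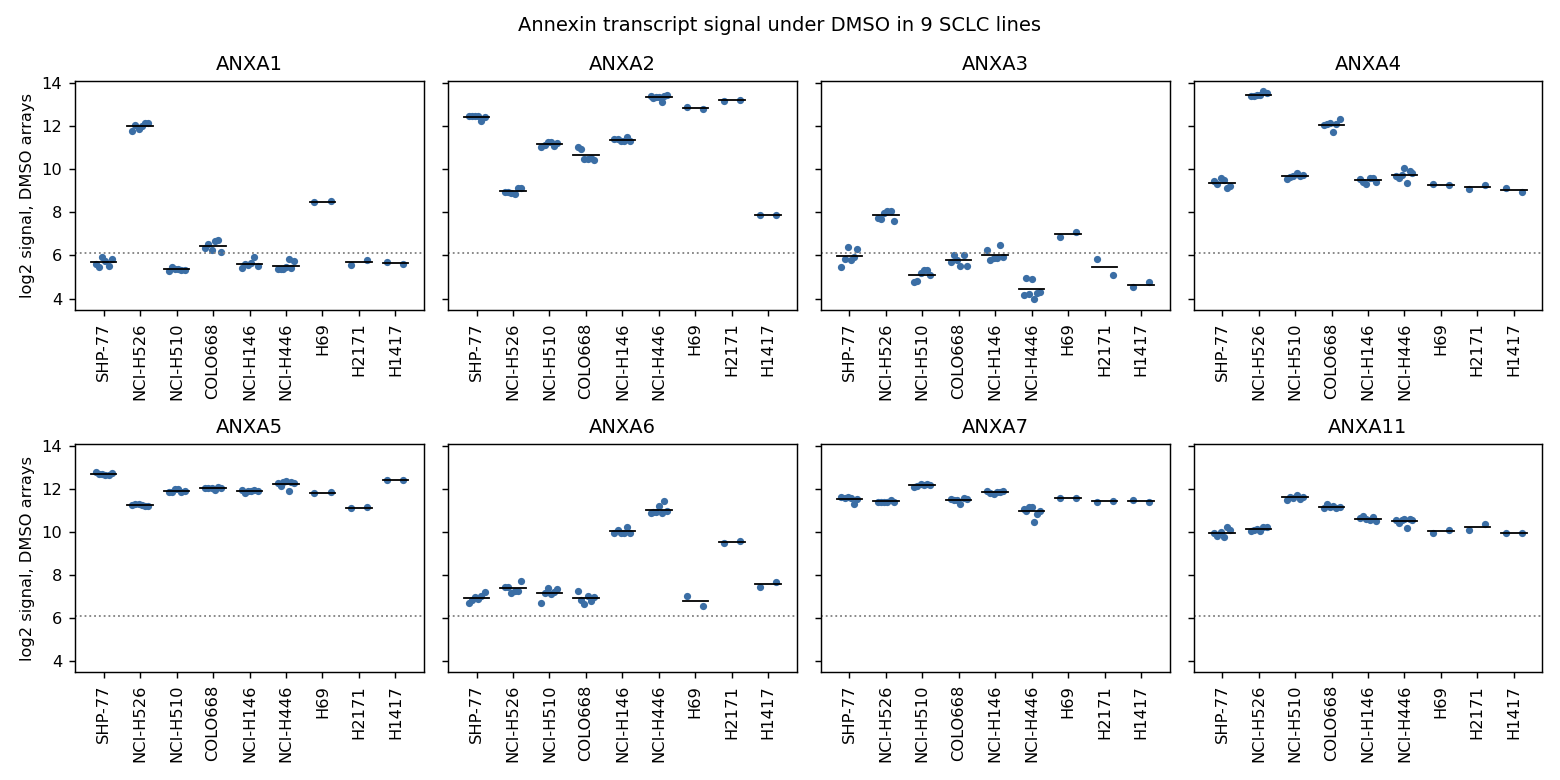
Log2 signal of each annexin on every DMSO array (points) of the 9 lines, with the mean of the day means as a bar and the dim limit of 6.09 as a dotted line. ANXA1 lay above the dim limit in NCI-H526 (11.99), H69 (8.50) and COLO668 (6.45) and was dim in the other 6 lines.

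ANXA1 was highest in NCI-H526, with DMSO arrays between 11.76 and 12.13 (mean 11.99 ± 0.15, SD, n = 6 arrays). H69 had 8.49 and 8.51, and COLO668 averaged 6.45 ± 0.23 (n = 6 arrays). Each of these levels differed from the next one down, with adjusted p of 1.09e-27, 5.09e-18 and 1.26e-05 by limma. The remaining 6 lines lay between 5.36 and 5.69, all dim, and no neighbours among them differed.

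ANXA2 formed an almost fully separated ladder, with 7 of 8 neighbour pairs called different. Its DMSO means were 13.35 in NCI-H446, 13.19 in H2171, 12.85 in H69 and 12.44 in SHP-77, then 11.37 in NCI-H146, 11.16 in NCI-H510 and 10.65 in COLO668. NCI-H526, the line where ANXA1 was highest, had 8.99, and H1417 had 7.89. Only NCI-H446 and H2171 at the top could not be separated (adjusted p = 0.15, limma). The step from NCI-H510 to COLO668 was 0.52. The DMSO level of COLO668 itself differed by -0.50 between day 7 and day 2, so the size of that step varied with the day.

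ANXA4, an annexin abundant in secretory epithelia, was high in the same line as ANXA1. Its DMSO mean was 13.47 ± 0.08 in NCI-H526 (SD, n = 6 arrays), next came 12.08 in COLO668, and the other 7 lines lay between 9.03 and 9.75. Both steps from the top passed the test. ANXA6, which carries a duplicated annexin core, ranked the lines differently, with 11.03 in NCI-H446, 10.02 in NCI-H146 and 9.52 in H2171, each different from the next. The other 6 lines had ANXA6 levels between 6.78 and 7.57.

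ANXA3 was read from its only probe set and was dim in most lines. NCI-H526 had 7.85 ± 0.20 (SD, n = 6 DMSO arrays) and H69 had 6.87 and 7.08, while 7 lines were dim, down to 4.43 in NCI-H446. ANXA5, ANXA7 and ANXA11 lay well above the dim limit in every line. ANXA5 ran from 12.70 in SHP-77 to 11.13 in H2171. ANXA7, first described as synexin, was at 12.17 in NCI-H510 and 10.97 in NCI-H446, with the other 7 lines between 11.41 and 11.85. ANXA11, which tethers RNA granules to lysosomes, was at 11.60 in NCI-H510 and 11.18 in COLO668, and at 9.95 to 10.62 elsewhere.

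Under 552A, annexin transcripts were more often higher than lower, and the pattern differed by line. A line's response is 552A minus DMSO on the log2 scale, averaged over the days measured, given with the standard error of the limma fit, and called at an adjusted p under 0.05. Of 72 pairs of gene and line, 16 were called higher and 3 lower, where 4.86% and 3.41% of all pairs of probe set and line were called. These shares run over every tested probe set, whereas each annexin was read from its brightest one. The genes and the lists below were chosen with earlier results known, so such shares describe them and test nothing about them. ANXA3 rose in 5 lines, ANXA2 in 4, ANXA1 and ANXA6 in 2, and ANXA4, ANXA5 and ANXA11 in 1. ANXA1 and ANXA4 fell in NCI-H526, and ANXA11 fell in NCI-H510. ANXA7 was called in none. Separate cultures are not stated for the arrays within a group, so these p-values rest on a spread between arrays that may be technical. Taken day by day, 27 of 168 sets of gene, line and day were called higher and 1 lower, where 2.9% and 1.58% of all such sets were called, and 10 of the 27 were ANXA3.

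**Figure D2:**
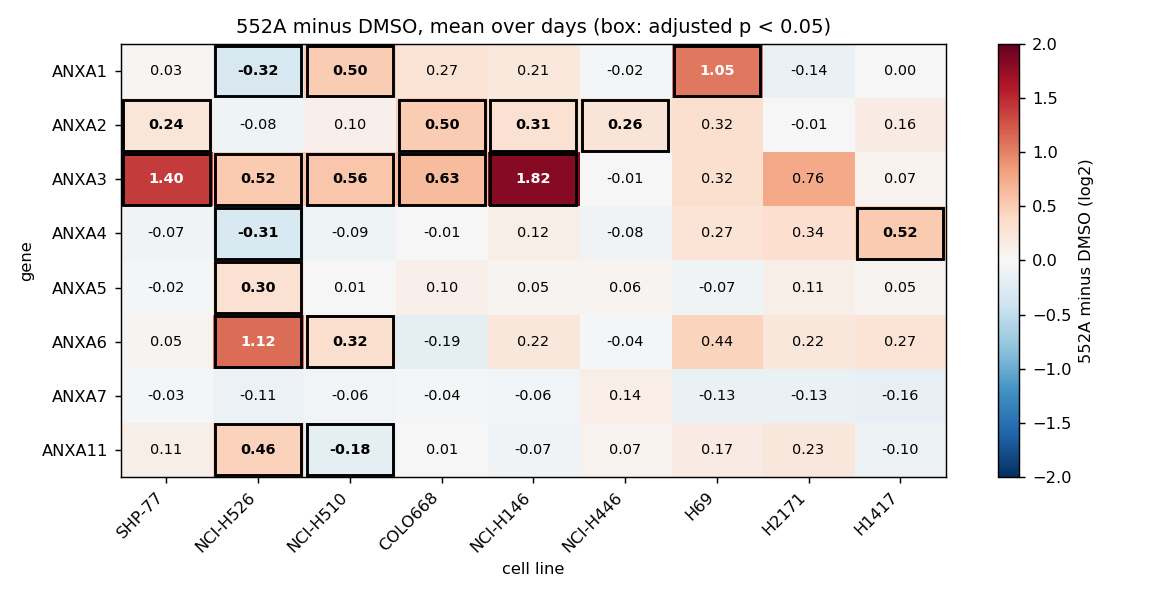
Response of the 8 annexins (down the page) in the 9 lines (across), as 552A minus DMSO on the log2 scale averaged over days. Boxed cells passed an adjusted p of 0.05 in limma, and the largest are ANXA3 in NCI-H146 (1.82) and SHP-77 (1.40), ANXA6 in NCI-H526 (1.12) and ANXA1 in H69 (1.05).

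NCI-H526 changed in 6 of the 8 genes, with 4 higher and 2 lower, where 9.12% of all probe sets in that line were higher and 8.43% lower. NCI-H510 had 3 higher and 1 lower, where 7.58% and 5.1% of its probe sets were. The next 3 lines had 2 genes higher and 0 lower each. Their background was 10.4% higher and 6.79% lower in COLO668, 3.17% and 1.76% in NCI-H146, and 2.68% and 3.44% in SHP-77. H69, H1417 and NCI-H446 had 1 gene higher and 0 lower each, against 1.85% and 1.22% of all probe sets in H69, 4.34% and 2.71% in H1417, and 3.5% and 0.858% in NCI-H446. None was called in H2171 by limma, although 3 of the 8 had an unadjusted p under 0.05, as did 8.32% of all probe sets. In that line 1.04% of all probe sets were higher and 0.382% lower. The median response of the 8 genes was 0.30 in H69, 0.17 in H2171, 0.16 in NCI-H146 and 0.11 in NCI-H526, and at most 0.06 in the other 5 lines. The median over all probe sets lay between -0.02 and 0.03 in every line.

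ANXA3, known from neutrophils, where it aggregates granules, gave the largest change of the family. In NCI-H146 the 552A arrays read 7.66 and 7.82 at day 2, 7.57 and 7.85 at day 4, and 7.91 and 8.30 at day 7. The DMSO arrays of that line read 6.26 and 5.92 at day 2, 5.78 and 5.89 at day 4, and 5.87 and 6.47 at day 7. Every 552A array lay above every DMSO array, and the mean difference was 1.82 ± 0.13 (3.53-fold, adjusted p = 1.64e-15, limma). The DMSO mean of 6.03 was dim, and all 6 arrays under 552A lay above the dim limit. In the same line PTPRC, a leukocyte gene, was also higher (1.06, adjusted p = 6.55e-16), while CD3E was not called (-0.11), and their part in the result was not tested.

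SHP-77 showed a similar shift. Its ANXA3 values under 552A were 7.16 and 7.04 at day 2, 7.38 and 7.40 at day 4, and 7.64, 7.63, 7.56 and 7.62 at day 7. Under DMSO they were 5.47 and 5.84 at day 2, 6.41 and 5.80 at day 4, and 5.94 and 6.32 at day 7. The groups again did not overlap, and the difference was 1.40 ± 0.13 (2.65-fold, adjusted p = 4.68e-12, limma). Here each of the 3 days passed the test on its own, with 1.45, 1.28 and 1.48, as each did in NCI-H146 with 1.65, 1.87 and 1.94.

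In 3 further lines the rise of ANXA3 was smaller and passed on 1 day each, while the test of day 7 against day 2 was called in none of the 3 (0.68 in COLO668, 0.41 in NCI-H510 and -0.62 in NCI-H526). COLO668 averaged 6.40 ± 0.35 under 552A and 5.77 ± 0.24 under DMSO (SD, n = 6 arrays each), a difference of 0.63 ± 0.13 (1.55-fold, adjusted p = 0.000386, limma). By day it was 0.36, 0.50 and 1.03, and day 7 alone was called. NCI-H510 averaged 5.64 ± 0.43 under 552A and 5.08 ± 0.23 under DMSO, both dim, a difference of 0.56 ± 0.13, with day 7 alone called (0.88). NCI-H526 had differences of 0.90, 0.38 and 0.27 by day and 0.52 ± 0.13 in all, with day 2 alone called.

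The other 4 lines gave no call for ANXA3. In H2171 the 552A arrays read 6.21 and 6.23, against 5.85 and 5.08 under DMSO, a difference of 0.76 ± 0.23 (adjusted p = 0.102, limma). It was 0.37 (adjusted p = 1) without DMSO replicate 2 and 1.14 (adjusted p = 0.0202) without DMSO replicate 1. H69 differed by 0.32 and H1417 by 0.07. NCI-H446 was dim in both arms and differed by -0.01 over the days, with 0.64 at day 4 (adjusted p = 0.039) and -0.56 at day 7.

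**Figure D3:**
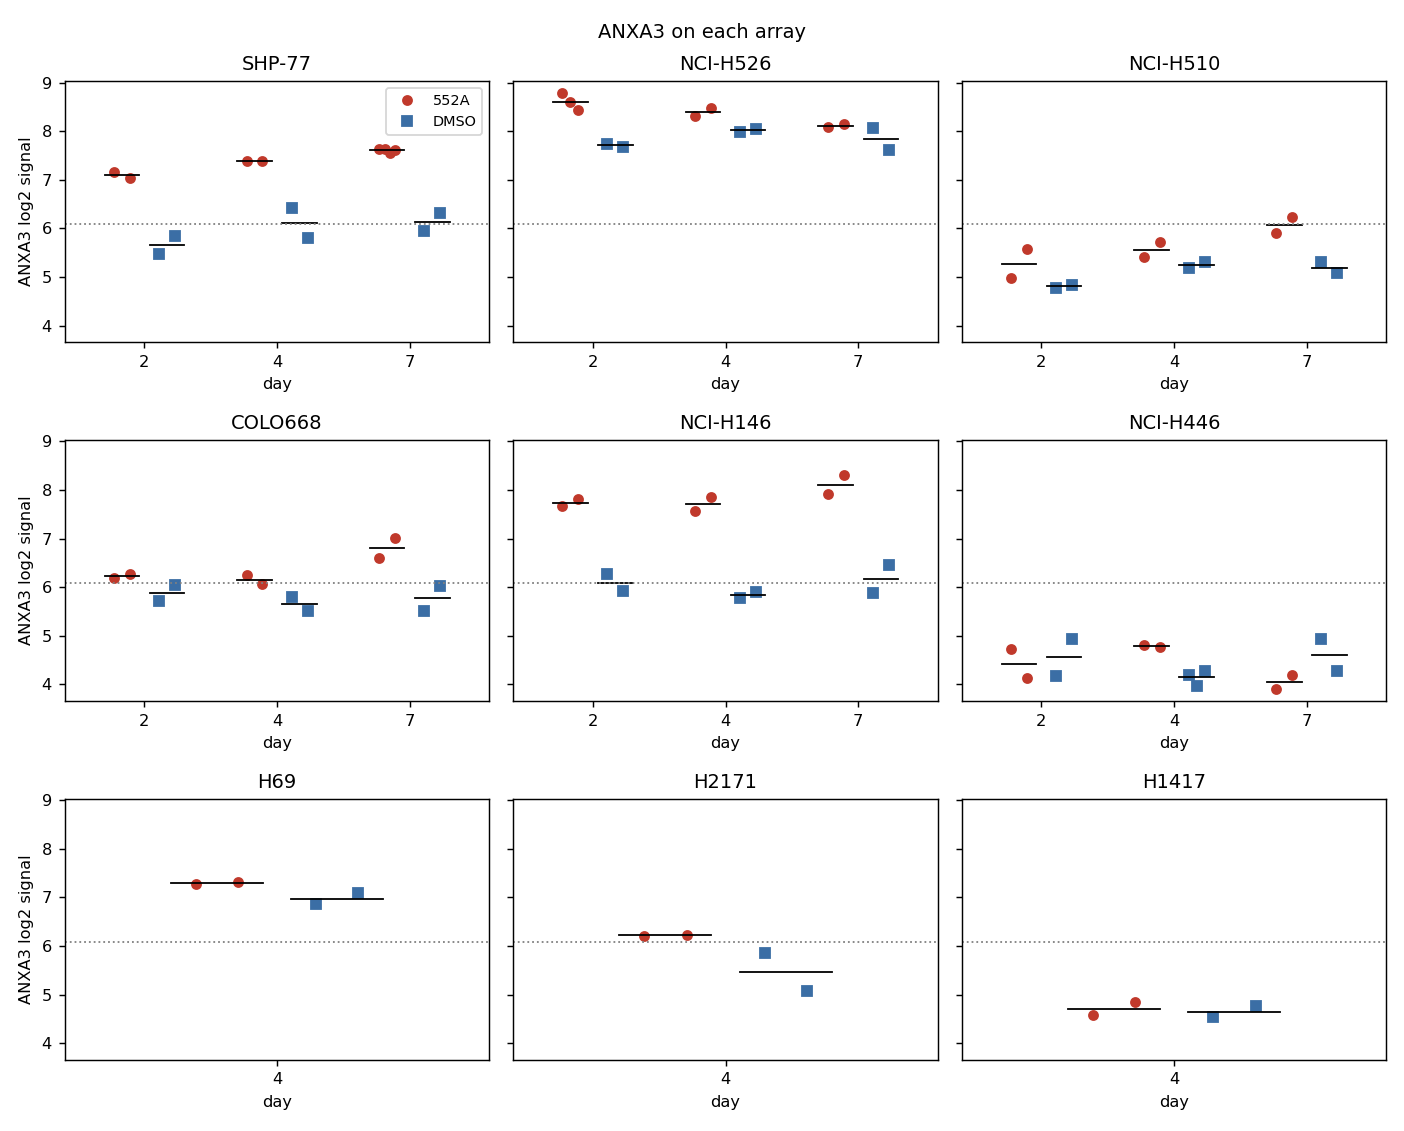
ANXA3 log2 signal on every array by line and day, with 552A as red circles and DMSO as blue squares, group means as bars and the dim limit of 6.09 dotted. In NCI-H146 and SHP-77 every 552A array lies above every DMSO array, whereas in NCI-H446 both arms lie below 5.

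ANXA1 rose in H69 and NCI-H510 and fell in NCI-H526, the line where it is highest. In H69 the 2 arrays under 552A read 9.62 and 9.48, against 8.49 and 8.51 under DMSO. That gap of 1.05 ± 0.18 (2.07-fold, adjusted p = 7.46e-05, limma) was far wider than the gap between arrays of either arm. In NCI-H510 the arms averaged 5.86 ± 0.35 under 552A and 5.36 ± 0.06 under DMSO (SD, n = 6 arrays each), a difference of 0.50 ± 0.10 (adjusted p = 0.000349). Both means were dim, and the difference by day was 0.17, 0.46 and 0.87, with day 7 alone called and its 552A arrays at 6.18 and 6.24. The other ANXA1 probe set did not pass the filter and was not tested. It gave 0.01 in H69, and by day 0.01, 0.11 and -0.06 in NCI-H510 and -0.50, -0.15 and 0.67 in NCI-H526.

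NCI-H526 had ANXA1 values of 11.46 to 11.94 under 552A (median 11.65, 7 arrays), against 11.76 to 12.13 under DMSO (median 12.03, 6 arrays). The arms overlapped, and the difference was -0.32 ± 0.10 (adjusted p = 0.0223, limma). This call was lost in 4 of the fits that left out 1 array, namely DMSO day 2 replicate 2 (-0.26, adjusted p = 0.11), DMSO day 4 replicate 2 (-0.29, 0.0681), 552A day 4 replicate 1 (-0.31, 0.05) and 552A day 7 replicate 1 (-0.28, 0.0797).

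In COLO668 the ANXA1 difference was called on 1 day, and that of day 7 minus day 2 was not called (0.79, adjusted p = 0.0794, limma). Its day 7 arrays read 7.11 and 7.87 under 552A, against 6.68 and 6.70 under DMSO, a difference of 0.80 that passed the test for that day. At days 2 and 4 the differences were 0.01 and 0.00, and the mean over days was 0.27 ± 0.11 (adjusted p = 0.0662, limma). It passed without 552A day 2 replicate 1 (0.33, adjusted p = 0.0386) or 552A day 7 replicate 1 (0.40, adjusted p = 0.00498). Without 552A day 7 replicate 2, the array at 7.87 and one of the 6 whose quality stood apart, the mean was 0.15 (adjusted p = 0.391) and the day 7 difference 0.43. NCI-H146 likewise had its widest difference at day 7, with 5.84 and 6.76 under 552A against 5.66 and 5.92 under DMSO. Its mean of 0.21 was not called with all arrays, and was 0.06 (adjusted p = 0.999) without 552A day 7 replicate 2 and 0.36 (adjusted p = 0.0196) without 552A day 7 replicate 1.

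ANXA2 rose in COLO668, NCI-H146, NCI-H446 and SHP-77, each time by less than 1.5-fold. In COLO668 the 552A arrays read 11.35 and 11.26 at day 2, 10.91 and 11.08 at day 4, and 11.06 and 11.23 at day 7. The DMSO arrays read 11.04 and 10.95, then 10.45 and 10.44, then 10.47 and 10.52 on the same days. Within each day the arms did not overlap, and the mean difference was 0.50 ± 0.07 (1.42-fold, adjusted p = 7.29e-08, limma). The DMSO level itself was lower at day 7 than at day 2 by -0.50 on the log2 scale (adjusted p = 0.00724).

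In NCI-H146 ANXA2 ran from 11.55 to 11.84 under 552A (median 11.66) and from 11.29 to 11.50 under DMSO (median 11.35), without overlap over 6 arrays each. The difference there was 0.31 ± 0.07 (adjusted p = 0.00162, limma). NCI-H446 had 13.57 to 13.64 under 552A (6 arrays) and 13.11 to 13.43 under DMSO (7 arrays), a difference of 0.26 ± 0.07 (adjusted p = 0.00973). From that line's own arrays alone the adjusted p was 0.239. SHP-77 differed by 0.24 ± 0.06 (adjusted p = 0.0144), which failed without 552A day 4 replicate 2 (0.23, adjusted p = 0.0537) or DMSO day 7 replicate 1 (0.21, adjusted p = 0.0865).

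H69, with 13.15 and 13.19 under 552A against 12.87 and 12.82 under DMSO, had an ANXA2 difference of 0.32 ± 0.12 that was not called (adjusted p = 0.168, limma). H1417 had 7.68 and 8.41 under 552A against 7.90 and 7.88 under DMSO. Its difference of 0.16 was not called and hung on single arrays, being -0.21 (adjusted p = 0.433) without 552A replicate 2 and 0.52 (adjusted p = 0.00186) without 552A replicate 1. All 3 tested probe sets of ANXA2 gave the same calls in 9 of 9 lines, but all end in _x_at, a suffix for probes that can match other transcripts. ANXA2P2, a processed pseudogene of ANXA2 with a probe set of the same kind, was likewise higher in COLO668 (0.32, adjusted p = 0.0118) and NCI-H446 (0.32, adjusted p = 0.0255). It was not called in SHP-77 (0.24, adjusted p = 0.11) or NCI-H146 (0.19, adjusted p = 0.374), where ANXA2 rose, and differed by -0.32 in H1417 (adjusted p = 0.318). Over the 9 DMSO line means its signal had a Pearson r of 0.99 with that of ANXA2, so the levels of the 2 transcripts cannot be told apart by these values.

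ANXA6 changed mainly in NCI-H526. There the 552A arrays read 8.21, 8.60 and 8.40 at day 2, 8.20 and 8.39 at day 4, and 9.05 and 8.55 at day 7. The DMSO arrays read 7.43 and 7.46 at day 2, 7.17 and 7.25 at day 4, and 7.24 and 7.72 at day 7. The arms did not overlap on any day, and the difference was 1.12 ± 0.10 (2.18-fold, adjusted p = 9.6e-14, limma), with 0.96, 1.08 and 1.32 by day. ANXA6 still stayed below the DMSO levels of NCI-H446, NCI-H146 and H2171. The other ANXA6 probe set, which did not pass the filter and was not tested, gave 0.08, -0.03 and 0.13 by day in NCI-H526.

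In NCI-H510 ANXA6 averaged 7.47 under 552A and 7.15 under DMSO, and the difference of 0.32 ± 0.10 was called (adjusted p = 0.0241, limma). This call was fragile, since leaving out any 1 of 6 arrays ended it. These were DMSO day 2 replicate 1 (0.25, adjusted p = 0.154), 552A day 2 replicate 1 (0.32, 0.0532), DMSO day 4 replicate 2 (0.27, 0.113), 552A day 4 replicate 1 (0.31, 0.0637), DMSO day 7 replicate 1 (0.30, 0.0632) and 552A day 7 replicate 2 (0.31, 0.0586). The lines with the most ANXA6 showed no call, at 0.22 in NCI-H146, 0.22 in H2171 and -0.04 in NCI-H446. From the NCI-H146 arrays alone that difference passed (adjusted p = 0.0413).

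**Figure D4:**
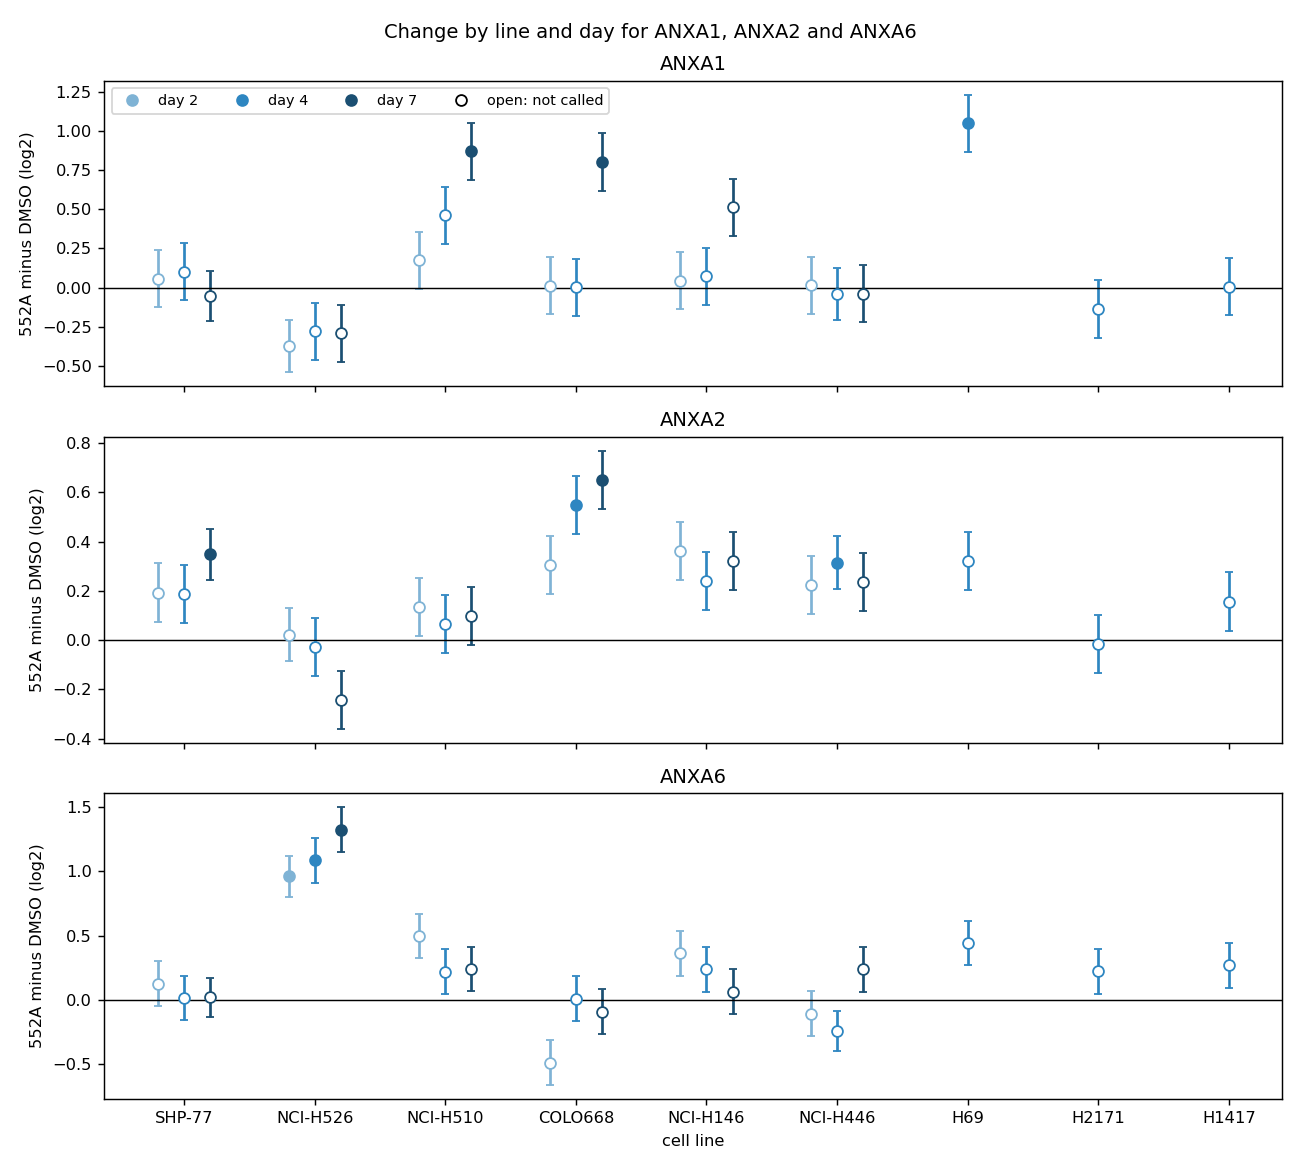
Difference of 552A minus DMSO on the log2 scale for ANXA1, ANXA2 and ANXA6 by line and day, with standard errors of the fit as bars. Filled points passed an adjusted p of 0.05 in limma, which for ANXA1 were H69 at day 4 (1.05) and NCI-H510 and COLO668 at day 7 (0.87 and 0.80), and for ANXA6 the 3 days of NCI-H526.

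ANXA4, ANXA5 and ANXA11 moved in few lines and by less than 1.5-fold. ANXA4 rose in H1417, with 9.47 and 9.63 under 552A against 9.12 and 8.93 under DMSO. The difference was 0.52 ± 0.11 (adjusted p = 0.000665, limma), and it did not pass without DMSO replicate 2 (0.43, adjusted p = 0.0541) or from that line's own 4 arrays (adjusted p = 0.157). In NCI-H526, where it is highest, ANXA4 fell. Its values were 13.11 to 13.23 under 552A (7 arrays) and 13.39 to 13.61 under DMSO (6 arrays), which did not overlap, and the difference was -0.31 ± 0.06 (adjusted p = 0.000128). The second probe set of ANXA4 was also called in both of these lines (0.40 and -0.25), and in addition in SHP-77 (-0.27, adjusted p = 0.011), where the brighter one gave -0.07. In H2171 and H69 the brighter probe set gave 0.34 and 0.27 without a call (adjusted p = 0.133 and 0.265, limma), and the second gave 0.26 and 0.36. The brighter one passed in both without the 6 arrays that stood apart (adjusted p = 0.011 and 0.0449). In H2171 it also passed under quantile normalization (0.33, adjusted p = 0.0241).

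ANXA5 was called in 1 line, NCI-H526, where arrays lay close together. The 552A arrays lay between 11.49 and 11.63 and the DMSO arrays between 11.20 and 11.30, for a difference of 0.30 ± 0.04 (1.23-fold, adjusted p = 1.48e-07, limma). In the other 8 lines its differences ran from -0.07 to 0.11.

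ANXA11 rose in NCI-H526, with 10.51 to 10.65 under 552A against 10.03 to 10.25 under DMSO. The difference was 0.46 ± 0.06 (1.37-fold, adjusted p = 2.95e-09, limma), and the 3 days gave 0.56, 0.46 and 0.35. A second probe set was called there too (0.32), whereas the third was not (0.17, adjusted p = 0.256). SHP-77 differed by 0.11 in ANXA11 without a call (adjusted p = 0.216, limma). That difference passed under quantile normalization (0.16, adjusted p = 0.0362) and with the mean of all its probe sets (0.16, adjusted p = 0.00563). In NCI-H510 ANXA11 was lower by -0.18 ± 0.06 (adjusted p = 0.0218), but its other probe sets gave -0.06 and -0.02 and no call. Leaving out 1 array ended that call in 6 cases, which were DMSO day 2 replicate 2 (-0.16, adjusted p = 0.0965), 552A day 2 replicate 1 (-0.17, 0.0742), DMSO day 4 replicate 2 (-0.16, 0.0851), 552A day 4 replicate 2 (-0.18, 0.0583), DMSO day 7 replicate 2 (-0.17, 0.0745) and 552A day 7 replicate 1 (-0.16, 0.0954).

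ANXA7 stayed within -0.16 and 0.14 in the 9 lines, with no call on the mean over days. At day 4 in NCI-H446 the 552A arrays read 11.14 and 11.14, against 11.18, 10.47 and 10.84 under DMSO, a difference of 0.31 (adjusted p = 0.0264, limma). The DMSO array at 10.47 is the one with the narrow interquartile range. Without it the day 4 difference was 0.14 and the mean over days 0.08 (adjusted p = 0.612). Without DMSO day 4 replicate 1, the array at 11.18, the mean over days was 0.19 (adjusted p = 0.00628).

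Whether the response differed between the 6 time course lines was tested directly with a moderated F test. It was called for 7 of 8 genes, ANXA7 being the exception (adjusted p = 0.166), and for 31.8% of all probe sets. For ANXA11 a second probe set was also called in this F test (adjusted p = 0.000929), but the third was not (0.0876). ANXA3 gave the smallest adjusted p (3.83e-11), then ANXA6 (2.82e-10). A test with the 9 lines as replicates at day 4 called 0 of 8 genes by limma, against 0.00338% of all probe sets. At an unadjusted p under 0.05 it held 3 of the 8, against 11.3% of all probe sets. These were ANXA3 (0.68 ± 0.16, higher in 9 of 9 lines, adjusted p = 0.145), ANXA2 (0.20 ± 0.06, higher in 7 of 9, adjusted p = 0.216) and ANXA6 (0.25 ± 0.11, higher in 8 of 9, adjusted p = 0.406).

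The response at day 7 minus that at day 2 was called in 0 of 48 pairs of gene and time course line by limma, against 0.601% over all probe sets. At an unadjusted p under 0.05 it held 5 pairs, against 6.66% of all pairs. One pair was called when COLO668 552A day 7 replicate 1, NCI-H146 552A day 7 replicate 1 or 2, or NCI-H446 DMSO day 4 replicate 2 was left out. The widest increases with time were ANXA1 in COLO668, given above, and in NCI-H510 (0.70, not called). The DMSO level itself differed between day 7 and day 2 in 2 of 48 pairs (2.05% over all probe sets). These were ANXA2 in COLO668, given above, and ANXA11 in SHP-77, which was higher at day 7 by 0.31 (adjusted p = 0.0442). The other tested probe sets of ANXA11 gave 0.07 and 0.12 there and no call. The count of changed DMSO levels was 1 without any of SHP-77 DMSO day 2 replicate 1 or 2, SHP-77 DMSO day 7 replicate 1, COLO668 DMSO day 2 replicate 1 or COLO668 DMSO day 7 replicate 2. Of these arrays, SHP-77 DMSO day 7 replicate 1 had a 3′ minus 5′ difference of ACTB of 1.67.

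Among 18 annexin binding partners, 14 had a tested probe set, and 21 of their 126 gene and line pairs were called higher and 5 lower, where 4.86% and 3.41% of all pairs were. S100A10, the partner of ANXA2, rose in NCI-H510 (0.49), NCI-H526 (0.48), COLO668 (0.47) and NCI-H446 (0.42). Of these, COLO668 and NCI-H446 also had more ANXA2. In H2171, H1417 and H69 S100A10 differed by 0.64, 0.52 and 0.46 without a call. S100A11, a partner of ANXA1, rose in NCI-H510 (0.58), NCI-H526 (0.52) and COLO668 (0.33). It fell in H69 (-0.56, adjusted p = 0.0323, limma), the line in which ANXA1 rose the most.

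S100A4, a metastasis-linked S100 protein that binds ANXA2, rose in NCI-H510 (0.91), SHP-77 (0.61) and COLO668 (0.36) and fell in NCI-H446 (-0.48). S100A6, or calcyclin, fell in NCI-H446 (-0.36) and was called nowhere else. PLAT, the tissue plasminogen activator that the complex of ANXA2 and S100A10 binds, rose in H1417 (0.86) and H69 (0.81), where its DMSO levels were dim (5.30 and 5.50). PRKCA, a protein kinase C that ANXA6 binds, rose in NCI-H510 (0.85), H1417 (0.62), NCI-H146 (0.39) and COLO668 (0.20). PDCD6, the calcium sensor ALG-2 that binds ANXA7 and ANXA11, was called in no line. The median response of the 14 partners was 0.21 in NCI-H510 and between -0.02 and 0.10 in the other 8 lines.

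**Figure D5:**
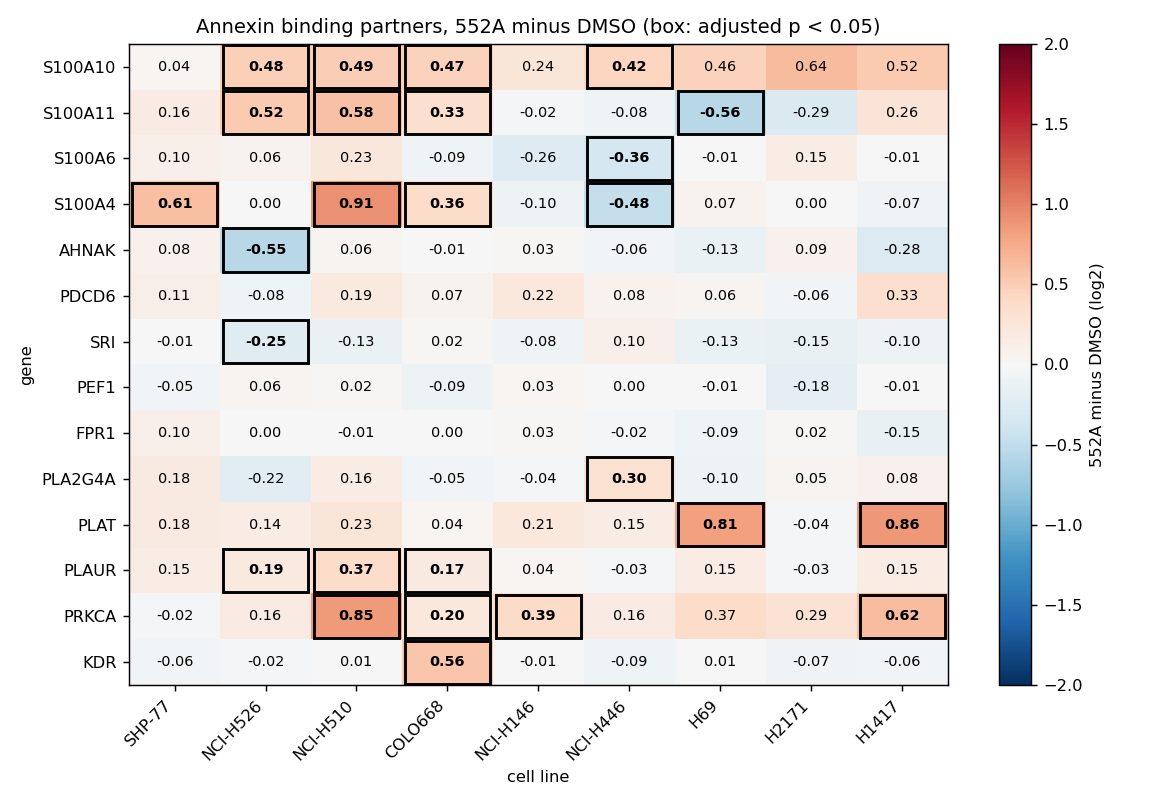
Response of 14 annexin binding partners (down the page) in the 9 lines (across), as 552A minus DMSO on the log2 scale averaged over days. Boxed cells passed an adjusted p of 0.05 in limma, and S100A10 was boxed in 4 lines, as was PRKCA.

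On the membrane repair list, with 16 tested genes of 17, 5 of 144 pairs were higher (3.47%) and 4 lower (2.78%), near the 4.86% and 3.41% of all pairs. MYOF (myoferlin), a ferlin that takes part in membrane fusion, held the 2 largest, at 1.64 in NCI-H446 (adjusted p = 1.3e-12, limma) and 0.75 in COLO668. ANO6, the phosphatidylserine scramblase, rose in H69 (0.60), and CAVIN1 rose in NCI-H510 (0.28). CAPN2, a calpain that cleaves membrane skeleton proteins, fell in NCI-H146 (-0.45) and H69 (-0.44). Of the other S100 genes, 8 of 11 were tested, with 5 of 72 pairs higher (6.94%) and 4 lower (5.56%), where 4.86% and 3.41% of all pairs were. S100A2 rose in NCI-H510 (0.36), COLO668 (0.34) and SHP-77 (0.25) and fell in H2171 (-0.69), S100A14 fell in H69 (-0.69), S100A13 rose in H1417 (0.55), and S100A3 fell in H2171 (-0.47).

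Of the 5 annexins outside the set, 3 had a tested probe set. ANXA9 rose in SHP-77 (0.67) and NCI-H510 (0.29) and fell in NCI-H526 (-0.24), while ANXA10 and ANXA13 were called in no line. Markers of other cells were compared as well. Immune markers passed the filter in 2 of 5 genes and averaged 4.86 to 5.72 per probe set under 552A and 4.88 to 5.38 under DMSO. Of their 18 pairs, 1 was called higher (5.56%, PTPRC in NCI-H146) and 0 lower, where 4.86% and 3.41% of all pairs were. The 5 fibroblast genes averaged 5.82 to 7.12 under 552A and 5.93 to 6.91 under DMSO, with 3 of 45 pairs of gene and line called higher (6.67%) and 2 lower (4.44%), where 4.86% and 3.41% of all pairs were. Among them LUM, which encodes the matrix proteoglycan lumican, fell in NCI-H526 (-2.01) and rose in NCI-H446 (1.90) and SHP-77 (0.92), lines with annexin calls, and its part in those results was not tested. The 5 endothelial genes averaged 6.35 to 7.42 under 552A and 6.41 to 7.35 under DMSO. Of their 45 pairs, 1 was called higher (2.22%) and 2 lower (4.44%), where 4.86% and 3.41% of all pairs were. These were KDR in COLO668 (0.56) and CLDN5 in H69 (-0.82) and NCI-H510 (-0.27). Such averages hide single bright genes. Under DMSO, CDH5 was at 10.94 in NCI-H446, CLDN5 at 10.50 in SHP-77 and the fibroblast gene COL1A2 at 12.003 in H69. The part of these genes in the annexin results was not tested.

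The genes that moved most like each annexin were sought over the 21 ratios of line and day, among 1594 genes with an SD of at least 0.3. ANXA6 was closest to TMEM163 (Pearson r = 0.90), BTN1A1 (0.90) and ADD2 (0.89), ANXA1 to CDC14B (0.78), LGALS3 (0.75) and PIEZO1 (0.71), and ANXA3 to CNTNAP3P2 (0.69), IL13RA2 (0.68) and RBM47 (0.65). The ratios of 1 line share their cells, so these are descriptions. Over the 9 DMSO line means, the nearest genes were IRAG2 for ANXA1 (r = 0.98), MRPL2 for ANXA2 (0.98), SLC22A23 for ANXA3 (0.96) and TFF1 for ANXA4 (0.98). They were NSD3 for ANXA5 (0.93), ZFPM2 for ANXA6 (0.99), MRPL45 for ANXA7 (0.91) and KCNK17 for ANXA11 (0.97), each chosen from 11564 genes.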

How the data were processed

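The deposited values are log2 expression levels per probe set on 88 arrays, used without new scaling. Per the labels' protocols, total RNA was labelled and hybridised by standard Affymetrix procedures. No source used here gives the program, background correction or scaling behind the authors' values. Arrays hold no depth, so their number limits the precision. Control probe sets and those annotated to more than 1 gene or to no gene were not tested.

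The limma model (lmFit, eBayes, version 3.58.1, R 4.3.3) had a mean for each of 42 groups. Residual degrees of freedom were 46 and the prior added 5.60. Tests were two-sided, with Benjamini-Hochberg adjustment over 29598 probe sets. In the test of a response shared by the lines at day 4, each line gave 1 ratio. The fits were also run on simulated data with independent noise on each array. Such data cannot show how the fits behave under shared array effects, poor arrays or technical replication. A gene was read from its brightest tested probe set, leaving aside the _x_at kind unless it was the only kind tested, as for ANXA2. From each gene list the text names up to 4 members with the largest called change, and always S100A10, S100A11, S100A6 and PDCD6. The genes and lists were chosen with earlier results of these data known. The labels do not say whether equal replicate numbers pair the arrays, and the main model has no pairing. Over 21 pairs of arms the correlation of deviations ran from -0.54 to 0.53 (median 0.09), and 10 exceeded 0.1. With 2 arrays in most arms, these values cannot decide whether the arrays of any line and day were paired. Alternatives were another normalization, other filters and probe sets, a variance trend, a replicate block, a line's own spread, day 4 alone, and arrays or lines left out. Figures were drawn with matplotlib 3.10.9 in Python 3.11.15, from tables read by pandas 2.3.3 with numpy 2.4.6.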

Additional observations from a re-analysis of the deposited data

Results flagged for a closer look

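The response to 552A, as 552A minus DMSO, differed between the 6 time course lines for 7 of the 8 annexins by the moderated F test in limma. The adjusted p was 3.83e-11 for ANXA3, with responses from -0.01 in NCI-H446 to 1.82 in NCI-H146, and 2.82e-10 for ANXA6, from -0.19 in COLO668 to 1.12 in NCI-H526. It was 7.44e-08 for ANXA11 (-0.18 in NCI-H510 to 0.46 in NCI-H526) and 5.82e-05 for ANXA2 (-0.08 in NCI-H526 to 0.50 in COLO668). The adjusted p of the other ANXA11 probe sets was 0.000929 and 0.0876, the latter not called. For ANXA1 it was 0.00026 (-0.32 in NCI-H526 to 0.50 in NCI-H510), for ANXA5 0.000309 (-0.02 in SHP-77 to 0.30 in NCI-H526) and for ANXA4 0.00509 (-0.31 in NCI-H526 to 0.12 in NCI-H146). NCI-H526 held the highest or the lowest response for 6 of these 7 genes.

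One value stood far from the rest of its set. The day 4 ratio of ANXA7 in NCI-H446, 0.31, lay above those of the other 8 lines by a gap equal to 0.6906 of the whole range, past Dixon's limit of 0.493 for 9 values. The ratio rests on DMSO day 4 replicate 2, an array with a narrow spread of values (interquartile range 2.56), and was 0.14 without it. Of 16 sets of values examined, 1 passed its limit, and chance passes about 1 in 20.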

How the results depend on the processing

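From day 4 alone, 10 pairs of gene and line were higher and 0 lower, against 16 and 3 over all days. ANXA3 in NCI-H446 turned from -0.01 to 0.64 (adjusted p = 0.039, limma). Other settings with all arrays gave 15 to 20 higher and 3 lower, or 2 lower with the mean of all probe sets. Without the 6 arrays that stood apart, a setting chosen after seeing the data, it was 19 and 4. Leaving out each array in turn gave 15 to 19 higher, 2 to 3 lower, 7 to 8 genes by the F test and 30 to 33 neighbour pairs. The 19 higher came without NCI-H446 DMSO day 4 replicate 2. The count of responses that changed with time was 1 under quantile normalization, with the replicate block and without the 6 arrays, against 0, and 0 to 1 with 1 array left out. The count of DMSO levels that changed was 1 without the dim filter, with the mean of all probe sets and without the 6 arrays, against 2, and 1 to 2 with 1 array left out. At the level of arrays rather than lines, 3 genes had a shared day 4 response, against 0 (ANXA2, ANXA3 and ANXA6, adjusted p of 0.000159, 1.19e-09 and 0.0014). The cause of these shifts was not tested.

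With the replicate block, 17 pairs were higher and 3 lower. It kept all 19 calls and added ANXA1 in COLO668 (0.27, adjusted p = 0.0313). No block could be fitted to DMSO levels or to the shared response. Where both arms were dim, as for ANXA3 and ANXA1 in NCI-H510, signal over background limits what can be read.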
